A study of Homo sapiens with 4 samples.

Results

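Among the genes that p53 is known to switch on, 8 act in the repair of damaged DNA or in surviving it: XPC, DDB2, POLH, RRM2B, GADD45A, GADD45B, GADD45G and TRIAP1. They were taken by name, and 7 were matched by Ensembl identifier among the 25693 human genes of the count table. GADD45B had no matching row, so it has no expression value here. All 7 passed the filter on low counts, which kept 14830 genes. In the pool of cells exposed to Nutlin-3, RRM2B was 2.32-fold and DDB2 1.51-fold higher than in the ethanol pool. XPC and GADD45G were 1.26-fold and 1.31-fold higher, and POLH, GADD45A and TRIAP1 differed by 1.16-fold, 1.10-fold and 1.09-fold, with counting intervals that included no difference for all of these 5.

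The cells were NGP, an established human neuroblastoma line, and RNA was counted per droplet barcode on the ddSeq device with a kit that reads the 3′ end of polyadenylated transcripts. Both groups had been synchronised by withdrawal of serum, and were then kept for 24 h in Nutlin-3, which keeps MDM2 from binding p53, or in ethanol, its solvent. Each treatment had 2 libraries that differed in the dilution of ERCC spike-in RNA, 1000-fold or 10000-fold. The barcodes name the treatment and not the library, so each treatment is 1 pool of 250 columns, no value has a replicate, and no test between treatments was possible.

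Free p53 binds DNA as a tetramer and raises transcription of genes that stop the cell cycle, repair DNA or start cell death. The repair arm is spread over several processes. XPC and the DDB2 protein find distorted or ultraviolet-damaged bases and hand them to nucleotide excision repair, which cuts out a short stretch of the damaged strand. POLH encodes DNA polymerase eta, which copies past damage that stalls the replication fork. RRM2B encodes a p53-inducible small subunit of ribonucleotide reductase, which makes deoxynucleotides outside S phase. GADD45 proteins are small acidic stress proteins that bind PCNA, CDK1 and the kinase MAP3K4, and TRIAP1 is a small mitochondrial protein that favours survival. Nutlin-3 frees p53 without itself being a DNA-damaging agent.

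The Nutlin-3 pool held 1301232 human counts and the ethanol pool 1342134. In each pool 113 columns exceeded 4000 counts in total and are called large. They carried 89.2% of the human counts in Nutlin-3 and 88.7% in ethanol, where the median column had 10617 and 10738 human counts. The other 137 columns per pool are called small, with a median of 828 and 868. Of the 250 names in each pool 219 occurred in the other pool too, among them all 113 names of large columns. Leaving out the shared names kept 31 columns per pool, in which no member had more than 3 counts, so no result could be given without them. It is therefore in doubt whether a column stands for 1 cell, and shares below are shares of columns, not of cells. All 10 markers of the adrenergic neuroblastoma line were found, at 104 to 1140 counts per pool. Of 16 genes typical of other lineages 7 had a row, with 0 to 49 counts per pool and sums of 120 in Nutlin-3 and 100 in ethanol. ALB, the albumin gene, was at 0 and 1. The 3 of them that passed the filter on low counts all had intervals clear of no difference. LYZ, the lysozyme gene of myeloid cells, had 49 counts against 24, or 1.06 on the log2 scale (0.34 to 1.84). The collagen gene COL1A1 had 47 against 29, or 0.73 (0.04 to 1.46). LUM, another gene of the connective tissue matrix, had 13 against 34, or -1.31 (-2.39 to -0.38). These sizes are close to or above those of RRM2B and DDB2, at lower counts, and the part of these genes in the results was not tested. Intervals are exact, at 95%, treat every count as an independent molecule, and hold no variation between cultures, so they cover counting error alone.

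**Figure D1:**
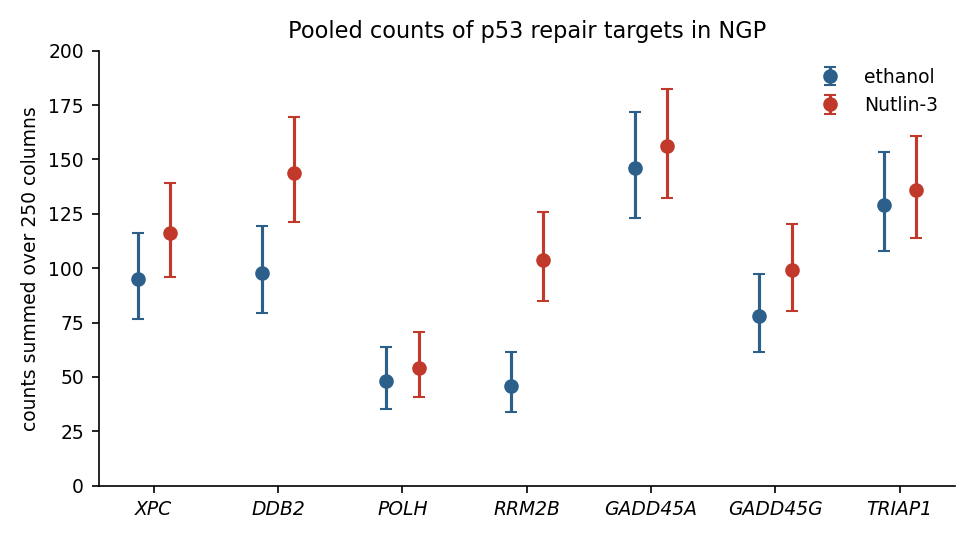
Counts summed over the 250 columns of each pool (vertical axis) for the 7 genes, with exact 95% Poisson intervals as bars; blue is ethanol and red is Nutlin-3. RRM2B, with 104 counts in Nutlin-3 against 46 in ethanol, and DDB2, with 144 against 98, lie furthest apart.

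XPC (ENSG00000154767, chromosome 3, 14145147 to 14178783 in GRCh38) had 116 counts in Nutlin-3 (95.9 to 139) against 95 in ethanol (76.9 to 116). Scaled to library totals, these were 89.2 and 70.7 CPM, that is, counts scaled to a common library total. The log2 fold change was 0.33 (-0.07 to 0.74). The gene was at 0 in 11 of the 113 large Nutlin-3 columns and in 28 of the 113 large ethanol columns, so that 90.3% (83.2 to 95) and 75.2% (66.2 to 82.9) of them held a count. Those shares were apart by slightly more than their intervals. The small columns gave 11 and 6 counts. The 3′ end of XPC is overlapped on the opposite strand by AC090004.1, with 3 counts in each pool, and AC093495.1, with 0 and 3.

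DDB2 (ENSG00000134574, chromosome 11, 47214465 to 47239240) had 144 counts in Nutlin-3 (121 to 170) against 98 in ethanol (79.6 to 119), or 111 and 73.0 CPM. Its log2 fold change was 0.60 (0.22 to 0.99). In Nutlin-3 only 1 of the 113 large columns lacked a count and 19 held at least 2. In ethanol 23 lacked one and 3 held at least 2. The shares with a count were 99.1% (95.2 to 100) and 79.6% (71.0 to 86.6). The small columns pointed the same way, with 12 counts against 5.

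RefSeq promoter windows of GRCh38.p14, from 250 bases before to 50 after a transcription start, were at hand for 6 of the 8 genes. They were searched on both strands for the p53 consensus decamer, a self-complementary motif of 10 bases that p53 binds in adjoining pairs. A decamer was present in 6.63% of the 35116 windows of all genes, and a pair with at most 13 bases between its members in 10 windows, or 0.0285%. One of those 10 lies at the downstream start of DDB2, where the decamers, in capitals, are 1 base apart. It is shown because DDB2 is 1 of the 2 genes past the fold threshold used below. The other, RRM2B, had no window at hand and was not searched, and neither was GADD45A. The stretch is chr11:47214975-47215004 on the plus strand, and the pair spans bases 6 to 26 after the start, inside the 5′ untranslated part of exon 1 of DDB2-201 in GENCODE release 29.

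DDB2 decamer pair: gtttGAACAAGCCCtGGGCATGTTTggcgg

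The windows of XPC, POLH, GADD45B, GADD45G and TRIAP1, and the upstream start of DDB2, held no exact decamer. This says only that those letters are not in these windows.

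POLH (ENSG00000170734, chromosome 6, 43576150 to 43615660) had 54 counts in Nutlin-3 (40.6 to 70.5) against 48 in ethanol (35.4 to 63.6), or 41.5 and 35.7 CPM. The log2 fold change of 0.21 (-0.37 to 0.81) cannot be told from none at this depth. It was present in 44.2% (34.9 to 53.9) of the large Nutlin-3 columns and 42.5% (33.2 to 52.1) of the large ethanol columns. All but 1 of the columns with POLH held a single count of it in Nutlin-3, and in ethanol none held more. The 3′ end of POLH lies within GTPBP2 on the opposite strand, which had 109 and 122 counts. Whether the counting used strand is not given in the sources used here, so reads of the 2 genes may be mixed.

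RRM2B (ENSG00000048392, chromosome 8, 102204502 to 102239118) showed the widest difference of the 7, and no annotated gene overlaps it. It had 104 counts in Nutlin-3 (85.0 to 126) against 46 in ethanol (33.7 to 61.4), or 80.0 and 34.3 CPM. The log2 fold change was 1.21 (0.71 to 1.76). In Nutlin-3 77.9% (69.1 to 85.1) of the large columns held a count, and 8 of them held 2. In ethanol 39.8% (30.7 to 49.5) did, and none held more than 1. The small columns had 8 counts against 1, a log2 fold change of 2.64 (0.24 to 8.61). Of all genes tested, 97.8% had a lower log2 fold change than RRM2B.

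The paralogue RRM2, the small subunit used in S phase, and the shared large subunit RRM1 had values on the other side of 0. RRM2 had 169 counts in Nutlin-3 (144 to 196) against 218 in ethanol (190 to 249), giving a log2 fold change of -0.32 (-0.62 to -0.02). RRM1 had 144 (121 to 170) and 171 (146 to 199), a log2 fold change of -0.20 (-0.53 to 0.13). In small columns RRM2 stood at 30 counts against 56 and RRM1 at 22 against 40, log2 fold changes of -0.75 (-1.45 to -0.10) and -0.71 (-1.55 to 0.06). In the large columns, which hold most of the counts, the values were nearer to 0, with -0.18 (-0.52 to 0.16) for RRM2 and -0.06 (-0.43 to 0.30) for RRM1, and both intervals included no difference. That of RRM2 also did when the shallowest columns, those far under the median depth, were left out (-0.28, -0.59 to 0.02). Scaling to ERCC counts kept these opposite signs, with 0.75 (0.24 to 1.29) for RRM2B, -0.79 (-1.09 to -0.49) for RRM2 and -0.67 (-1.0 to -0.34) for RRM1.

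GADD45A (ENSG00000116717, chromosome 1, 67685061 to 67688338) had 156 counts in Nutlin-3 (132 to 182) against 146 in ethanol (123 to 172), or 120 and 109 CPM, a log2 fold change of 0.14 (-0.19 to 0.48). It was seen in all 113 large Nutlin-3 columns and in 112 of the large ethanol columns, and 103 and 99 of them held exactly 1 count. In the large columns its sums were 124 and 126. In the small columns, where few counts fall on a gene, they were 32 and 20, or 0.80 on the log2 scale (-0.03 to 1.70). The difference in the pooled count thus came from the small columns, where its interval still reached 0.

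GADD45G (ENSG00000130222, chromosome 9, 89605013 to 89606555) had 99 counts in Nutlin-3 (80.5 to 121) against 78 in ethanol (61.7 to 97.3), or 76.1 and 58.1 CPM. Its log2 fold change was 0.39 (-0.05 to 0.84). It was present in 80.5% (72.0 to 87.4) of the large Nutlin-3 columns and 64.6% (55.0 to 73.4) of the large ethanol columns, intervals that overlapped narrowly. Small columns added 6 and 4 counts.

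TRIAP1 (ENSG00000170855, chromosome 12, 120443961 to 120446412) had 136 counts in Nutlin-3 (114 to 161) against 129 in ethanol (108 to 153), or 105 and 96.1 CPM, a log2 fold change of 0.12 (-0.24 to 0.48). Like GADD45A it was seen in nearly every large column, 111 in Nutlin-3 and 109 in ethanol. In small columns the order turned, with 14 counts against 17, or -0.13 on the log2 scale (-1.27 to 0.97). TRIAP1 lies within AL021546.1 on the opposite strand, which was not analysed here. No difference in TRIAP1 was detectable at this depth.

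**Figure D2:**
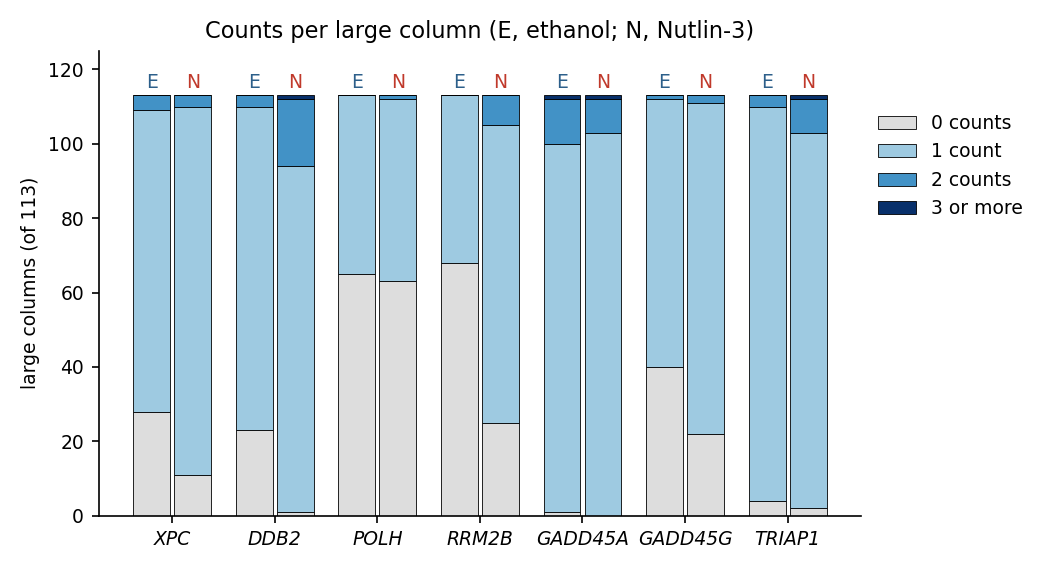
Number of large columns (of 113 per pool, vertical axis) with 0, 1, 2 or at least 3 counts of each gene; E is ethanol and N is Nutlin-3. Over the 7 genes together most values are 1, though POLH is at 0 in 63 and 65 columns. RRM2B is at 0 in 25 columns in Nutlin-3 against 68 in ethanol and DDB2 in 1 against 23, while GADD45A and TRIAP1 are at 0 in at most 4.

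Counts of these genes in a large column piled up at 1. Of the 791 values that 7 genes and 113 columns give, 614 were 1 in Nutlin-3 and 538 in ethanol. Values of 0 numbered 124 and 229, and values of 2 numbered 50 and 23. The maximum of 3 was reached by 3 values in Nutlin-3 and 1 in ethanol. A gene already present in nearly all large ethanol columns, such as GADD45A or TRIAP1, therefore had little room to gain columns. The same pile-up puts in doubt that counts are independent, as the intervals assume. How far it bears on the small differences of these genes was not tested.

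A log2 fold change of at least 0.5 was used to count genes as higher, a rule of size and not a test. By it 2 of the 7 genes, RRM2B and DDB2, were past the threshold, against 9.47% of all genes tested. Many of the genes past it had few counts. Of the 8844 genes that averaged 50 CPM or more, which include 6 of the 7, 0.972% were past it, and the same 2 genes were. RRM2B, at 34.3 CPM in ethanol and 80.0 in Nutlin-3, reached that average only through the pool where it is higher. For RRM2B this share is therefore not an independent background. Genes were also split, after the data were seen, at a count in 75% of the large ethanol columns. The ethanol pool is also the denominator of each fold change, so class and fold change are not independent. Shares and ranks within a class are therefore descriptions only. Of the 7089 genes seen that often 0.113% were past the threshold, and DDB2 was 1 of these 8 genes, the fourth highest. Of the 7741 seen in fewer columns 18% were, RRM2B ranking 320 among them. XPC, DDB2, GADD45A and TRIAP1 belong to the first class, and there 89.2% of genes had a lower fold change than GADD45A and 86.2% than TRIAP1. XPC, seen in 85 large ethanol columns, just reached that class, which needs 85. In it 99.1% of genes lay below XPC, but 73.1% in the other class. With the split at 80%, DDB2 and XPC both moved to the second class, where 86.4% of genes lay below DDB2, so their standing among genes depends on the split. In the second class 76.4% lay below GADD45G and 64.9% below POLH.

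All 7 genes had a log2 fold change above 0 relative to human counts, as had 49.7% of all genes tested. Their median was 0.33, beside -0.0011 over all genes tested. When counts were scaled to the ERCC species instead, only RRM2B and DDB2 (0.13, -0.25 to 0.52) stayed above 0 and the other 5 lay between -0.35 and -0.08. That scaling lowers every gene by the same amount and puts the median of all genes at -0.47, so the members' order and their distance from other genes are the same. The 2 spike-in dilutions are mixed in unknown proportion in each pool, so that the mixture and the RNA content of the cells cannot be told apart.

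**Figure D3:**
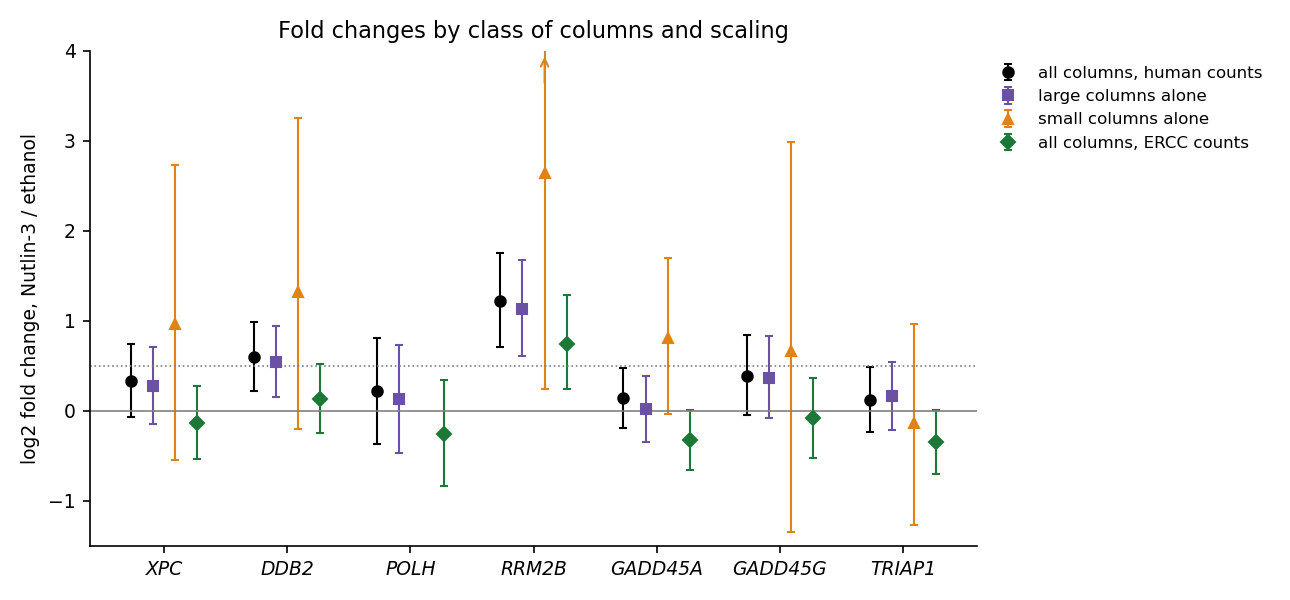
Log2 ratio of Nutlin-3 to ethanol (vertical axis) with 95% counting intervals, from all columns, large columns alone, small columns alone, and all columns scaled to ERCC counts; the dotted line is the threshold of 0.5. RRM2B lies above 0 in all 4, its small-column interval running past the axis to 8.61; POLH, with 3 and 0 counts in small columns, has no value there.

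Thinning every large column to 5000 counts put the columns at equal depth. The number of the 7 genes seen in a column then averaged 2.95 in Nutlin-3 (SD over columns 1.33) and 2.32 in ethanol (SD 1.28), with medians of 3 and 2. Columns with at most 1 of the genes numbered 18 in Nutlin-3 and 31 in ethanol. Columns with 5 or 6 numbered 12 and 5. The distributions overlapped over most of their range, and columns are not replicates, so this is a description of the 2 pools.

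**Figure D4:**
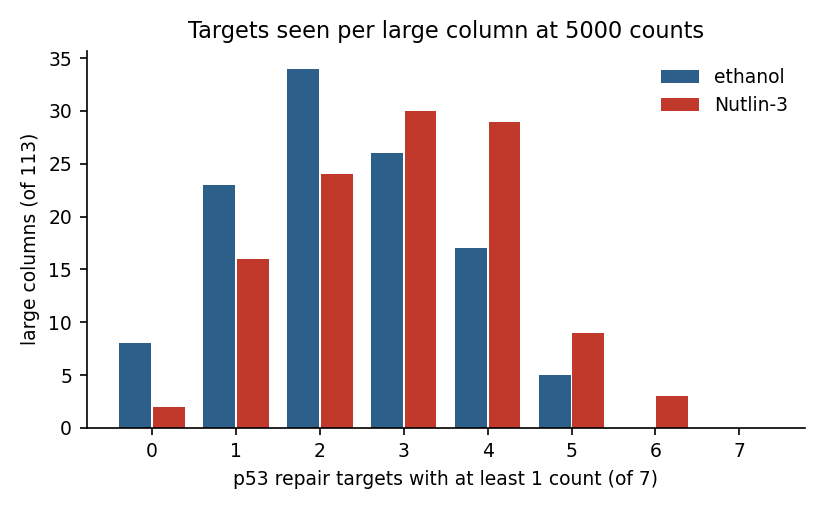
Number of large columns (vertical axis, 113 per pool) by how many of the 7 genes had at least 1 count after thinning to 5000 counts; blue is ethanol and red is Nutlin-3. The Nutlin-3 columns peak at 3 genes and the ethanol columns at 2.

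Gene by gene at 5000 counts, DDB2 was seen in 59.3% of large Nutlin-3 columns (49.6 to 68.4) and 37.2% of ethanol columns (28.3 to 46.8), and GADD45G in 46.9% (37.5 to 56.5) and 26.5% (18.7 to 35.7). For these 2 genes the intervals were apart in this draw. RRM2B was seen in 29.2% (21.0 to 38.5) and 18.6% (11.9 to 27.0), with overlap. Thinning was a single random draw, and the intervals leave out its variation. In the large columns without thinning, the intervals of RRM2B were apart (77.9% and 39.8%) and those of GADD45G overlapped (80.5% and 64.6%). Which of these genes stood apart thus differed with thinning, and the share of all genes that did is not given here. For XPC the shares were 41.6% and 32.7%, for POLH 21.2% and 19.5%, and for TRIAP1 50.4% and 43.4%, all overlapping. GADD45A was seen in 46.0% and 54.0%, against the direction of its CPM, and no order is read from it. The line offers no cell type that should lack these genes. As a rough background, the 7 genes of other lineages were seen in 0 to 16.8% of the same thinned columns, the highest being COL1A1 in Nutlin-3, named after its value was seen. POLH in both pools and RRM2B in ethanol lay near that level. With 700 counts per column over both classes, 0.444 of the 7 genes were seen per Nutlin-3 column and 0.258 per ethanol column, in 187 and 194 columns.

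The rest of the repair machinery was set beside the targets. Over 59 genes of nucleotide excision repair, damage bypass, deoxynucleotide supply, damage signalling and known partners of the GADD45 and TRIAP1 proteins, 57 passed the filter. Of these 18 were higher and 39 lower in Nutlin-3, with a median log2 fold change of -0.08. Of all genes tested, 49.7% were higher. Past 0.5 there was 1 gene, CDKN1A, and past -0.5 there was also 1, CHEK1. Of all genes tested 9.47% were past 0.5 and 7.5% past -0.5. Many of the 57 were in the class seen in at least 75% of large ethanol columns, where 0.113% were past 0.5. Within that class 58.0% of genes lay below PRELID3B, a partner of TRIAP1 at 0.0064. The repair genes are therefore not matched to all genes, and these counts are descriptions only. When ERCC counts were the scale, CDKN1A was the 1 gene that stayed higher and 56 were lower, with a median of -0.55.

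**Figure D5:**
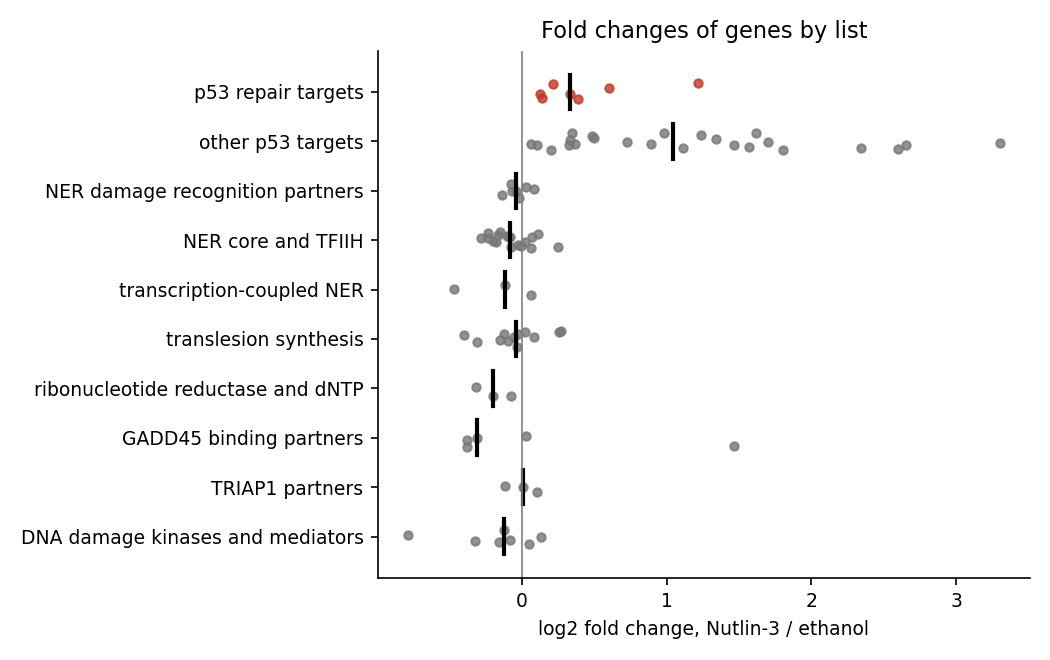
Log2 ratio of Nutlin-3 to ethanol (horizontal axis) for each gene that passed the filter, by list; red points are the 7 p53 repair targets and black bars are medians. The 7 targets lie between 0.12 and 1.21, and the excision repair lists lie around 0, all relative to human counts; relative to ERCC counts every value is lower by the same amount.

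In nucleotide excision repair, the 7 partners of XPC and DDB2 in damage recognition lay between -0.14 and 0.09, with 2 higher and 5 lower. The core factors and TFIIH subunits had 18 of 20 genes tested, 5 higher and 13 lower, with a median of -0.08. Both genes left out, ERCC5 and GTF2H4, had at most 3 counts in a pool. ERCC4, which encodes the XPF nuclease, was the highest, with 69 counts against 60, or 0.25 on the log2 scale (-0.27 to 0.77). In the transcription-coupled branch 1 of 3 genes was higher. ERCC6, which encodes the CSB protein, had 37 counts against 53, or -0.47 on the log2 scale (-1.12 to 0.16). In the pooled sums DDB2 and XPC thus stood above all tested genes of these 3 lists, although the intervals of both covered the value of ERCC4.

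Among 12 genes of damage bypass, 4 were higher and 8 lower, with a median of -0.04. POLI, a sister polymerase of POLH, had 89 counts against 76, a log2 fold change of 0.27 (-0.18 to 0.73). REV3L, the catalytic subunit of polymerase zeta, had 132 against 114, or 0.26 (-0.12 to 0.63). RAD18, the ligase that marks PCNA at stalled forks, had 88 against 120, or -0.40 (-0.82 to 0.01), and PCNA itself 176 against 225, or -0.31 (-0.60 to -0.02). In large columns alone PCNA stood at -0.19 (-0.52 to 0.15), and without the shallowest columns at -0.29 (-0.59 to 0.01), so that its interval then included no difference. The value of POLH lay within this range.

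Partners of the GADD45 proteins were spread more widely. CDKN1A, the p21 gene and itself a p53 target, had 188 counts against 70, a log2 fold change of 1.46 (1.07 to 1.89). CDK1 had 168 against 226 and CCNB1, its cyclin, 165 against 222, both with a log2 fold change of -0.38. Large columns alone gave -0.24 (-0.59 to 0.10) for CDK1 and -0.17 (-0.51 to 0.17) for CCNB1, which included no difference, and small columns alone gave -0.72 (-1.37 to -0.12) and -0.99 (-1.67 to -0.36). The 3 partners of TRIAP1 lay between -0.12 and 0.10. In damage signalling 2 of 7 genes were higher. ATM, the kinase activated by strand breaks, had 120 against 113, or 0.13 (-0.25 to 0.52). CHEK1, the kinase that acts when replication stalls, had 62 (47.5 to 79.5) against 111 (91.3 to 134), or -0.79 (-1.27 to -0.33), and was seen in 54.0% and 87.6% of large columns.

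Other p53 targets were compared by fold change. Of 25 listed genes 24 were in the table and tested. All 24 had a log2 fold change above 0 relative to human counts (17 of them above 0 relative to ERCC counts). Past 0.5 were 16, and their median was 1.05, against 0.33 and 2 of 7 for the repair targets and 9.47% of all genes tested. All of the 16 but MDM2 and BTG2 were in the class seen in fewer large ethanol columns, where 18% of genes were past it. XPC, DDB2, GADD45A and TRIAP1 were in the other class, so the lists are not matched and the medians give no order between them. FAS, at 33 counts against 3, reached the minimum of 10 counts in Nutlin-3 alone, and the median without it was 0.98. These targets are well known, and earlier results of the same pools were known when both lists were drawn up, so neither list is independent evidence of its direction. With 1 fold change per gene, likeness is only the difference between log2 fold changes. RRM2B was nearest to PLK3 (1.24) and SESN1 (1.11), and DDB2 to BTG2 (0.50) and ZMAT3 (0.49). XPC was nearest to CCNG1 and SUSD6 (both 0.33), and GADD45G to AEN (0.37) and BAX (0.35). POLH was nearest to TP53I3 (0.20), and GADD45A and TRIAP1 to PPM1D (0.10). MDM2, which encodes the protein that Nutlin-3 binds, had 504 counts against 315, a log2 fold change of 0.72 (0.52 to 0.93), between DDB2 and RRM2B.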

How the data were processed

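The authors deposited raw counts of 25693 genes in 500 columns, from 3′ libraries of polyadenylated RNA made on the ddSeq device per the labels' protocols. How reads were aligned, assigned to barcodes and counted, on which build and annotation, and how columns were filtered, is not stated in those sources. Columns named treated were taken as Nutlin-3 and columns named untreated as ethanol; 0 were unassigned. Counts were summed per treatment without the 62 ERCC species and scaled with TMM factors of edgeR 4.0.16 in R 4.3.3 (0.9995 for Nutlin-3, 1.0005 for ethanol), and the edgeR filter used a minimum of 10 counts. Log2 fold changes had 0.5 added to each sum, and their intervals follow from exact binomial limits on the share of counts in Nutlin-3. The planned test on library sums could not be run. The calculation was tested on simulated counts. Python 3.11.15 was used, thinning had a fixed seed, and symbols and coordinates were read from GENCODE release 29 (GRCh38), which may differ from the authors' build. Doublets were not called, the cells being a single line.

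The members and lists were chosen with earlier results of these data known. Genes named were the members, RRM1, RRM2, PCNA, CDKN1A and MDM2, the 5 highest and 5 lowest repair genes with at least 40 counts over both pools, and the p53 targets nearest to each member. Another gene of that rule, also taken out of its list, is not reported here. Alternatives were DESeq2 1.42.0 size factors, ERCC counts as library size, no filter, 1 count added, equal pool depth, other sets of columns, other thinning depths and other fold thresholds.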

Additional observations from a re-analysis of the deposited data

How the results depend on the processing

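No paired analysis was possible because no column names its library or replicate number, and leaving out each library and the edgeR and DESeq2 tests were not run for the same reason. Scaling to ERCC counts gave a member median of -0.14, 1 member past the threshold and a median of -0.55 for the other repair genes. Small columns alone gave 5 of 6 members with a value past the threshold and a repair median of 0.0033 over 31 genes. Among those 6 only RRM2B had an interval clear of no difference there. Only 4 members passed the filter there, so the small columns support no statement on all members. The member median kept its sign elsewhere, from 0.28 in large columns to 0.88 in small ones. A threshold of 1 left 1 member and one of 0.3 left 4. The shares of all genes past the threshold in these alternatives are not given here, so the counts of members are descriptions only. Without thinning, 3.01 members were seen per Nutlin-3 column and 2.46 per ethanol column. Leaving out columns whose name occurs in both treatments gave no value. For 21 named genes under 8 alternatives, 136 of 165 values stayed within the counting interval of the first value. Leaving out the filter cannot move a value, and DESeq2 factors and 1 count added moved values little. Part of this tally was therefore fixed in advance. The 29 values outside their interval came from ERCC scaling (16) and small columns (13), and 0 genes past the threshold changed sign. The cause was not tested.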
